A study of Mus musculus with 67 samples.

Results

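Naive mouse B cells given anti-IgM/G and anti-Btla beads were compared with naive B cells that received no stimulus. The aim was to describe how much of the response to the B cell receptor was still present when the inhibitory receptor Btla was engaged. The comparison rests on 6 of the 60 libraries of the series, 3 of each group, chosen by their labels and all without interferon beta (IFNb). B cells had been enriched from spleens and lymph nodes of C57BL/6 animals without immunization, and the study used animals of 8 to 12 weeks and both sexes. The anti-Btla group received polyclonal anti-IgM/G and an anti-Btla antibody carried on latex microspheres for 18 h, while the unstimulated group received no bead and no antibody. Whether the microspheres carried anti-IgM/G too is not stated clearly in the sources used here. Another group, set beside these, received anti-IgM/G and control Ig beads (3 libraries). The anti-Btla and unstimulated arms existed also for B cells from animals with experimental autoimmune encephalomyelitis (EAE, 3 libraries each). No group of animals carried a transgene or a deletion according to the labels. Whether the unstimulated cells were also kept in culture for 18 h is not given in the sources used here, so effects of the receptor stimulus, the bead, the Btla antibody and time in culture cannot be told apart in this comparison. Nothing in the labels says that replicates came from separate animals, so p-values cover only the spread among these libraries, which may be technical.

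Btla is a receptor of the immunoglobulin superfamily on B and T cells, and its ligand is Hvem, the product of Tnfrsf14. When engaged near the antigen receptor, its cytoplasmic tyrosine motifs recruit the phosphatases Shp-1 (Ptpn6) and Shp-2 (Ptpn11), which act on the kinases that the antigen receptor starts. Cross-linking of surface IgM and IgG drives those kinases, calcium and MAP kinase signals and NF-kB, first inducing transcription factors of the Egr and Nr4a families and Myc, and later the ribosome, nutrient uptake and glycolysis that growth before division needs.

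The libraries held 24.4 to 32.9 M counts with anti-Btla beads, 29.2 to 42.3 M with control Ig beads and 29.4 to 39.4 M without stimulus. Levels are given below as CPM, the usual counts scaled to a library of 1000000 counts (1 M), which are shares of a library's RNA, so neither a change in RNA per cell nor one in cell number can be told apart from a change in a gene. Mitochondrial genes took 4.5 to 4.69% of counts with anti-Btla beads, against 3.94 to 4.11% in unstimulated cells, and the part of this difference in the results was not tested. The labelled cell type was checked against 15 B cell markers, which summed to 16300 to 17700 CPM with anti-Btla beads and 17300 to 19100 CPM without stimulus. The 15 T cell markers summed to 15.3 to 23.8 CPM with anti-Btla beads and 12.9 to 21.6 CPM without, with Cd3g, Cd8b1, Lat and Zap70 below 1 CPM in all 6 libraries. Within that list only Cd28 was called, at 4.57, 5.06 and 6 CPM with anti-Btla beads against 1.47, 1.92 and 2.68 CPM without stimulus (log2 1.37 ± 0.19 SE, edgeR adjusted p = 7.44e-05), while Cd3d was at -0.12 and Thy1 at -0.23. The 16 myeloid markers summed to 120 to 170 CPM with anti-Btla beads and 96.2 to 143 CPM without, and 9 of them, among them S100a8, S100a9, C1qa, C1qb, Ly6g and Csf3r, were below 1 CPM in all 6. Most of both sums came from Mpeg1, which was not called (82.6 to 107 CPM with anti-Btla beads and 67.2 to 105 CPM without). With anti-Btla beads the summed markers of NK cells, of dendritic cells and of red cells and platelets were at 13.8 to 17.3, 53.7 to 61.1 and 5.18 to 6.41 CPM, against 10.7 to 15.4, 46.7 to 55.1 and 4.04 to 5.19 CPM without stimulus. Flt3 was called higher on the dendritic list (0.62 ± 0.15, adjusted p = 0.0113, at 10.3 to 12.6 CPM against 6.09 to 10.1 CPM without stimulus), a call lost without the block (0.61), without anti-Btla replicate 3 (0.60) and without unstimulated replicates 2 and 3 (0.48 and 0.56), and the part of these cells in the results was not tested.

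Anti-Btla beads left a small and nearly balanced change. Of 16635 genes tested with edgeR, 632 rose (3.8%) and 713 fell (4.29%) relative to unstimulated cells at an adjusted p below 0.05. The median change of those called was 0.34 on the log2 scale among genes that rose and -0.36 among genes that fell, and 68 of the 1345 genes changed more than 2-fold. Control Ig beads changed 6700 genes relative to the same unstimulated libraries, 3790 higher (22.8%) and 2910 lower (17.5%), of which 767 changed more than 2-fold. Set directly against control Ig beads, anti-Btla beads gave 2195 higher (13.2%) and 3293 lower genes (19.8%). These 3 comparisons share libraries, so their values stand side by side below and no overlap between them is read. The count for anti-Btla beads depended on the replicate block: without it, 792 genes were called, 376 higher and 416 lower. With upper quartile scaling the split for control Ig beads became 3056 higher and 3928 lower, and that between the bead kinds 3230 higher and 2543 lower. The split for anti-Btla beads against no stimulus moved by less than 10 percentage points under the scalings tried.

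Early response genes of the B cell receptor were the first group examined, and their calls with anti-Btla beads went in both directions. Of 24 tested, 4 rose and 4 fell (median log2 change -0.11, against 0.00 over all genes tested), while control Ig beads raised 15 and lowered 4 (median 0.69). Over all genes tested, 3.8% rose and 4.29% fell with anti-Btla beads, and 22.8% and 17.5% with control Ig beads. These shares are the background for each list below. Egr2, a zinc finger transcription factor that antigen receptor signals switch on (chr10:67535475-67542188, GRCm38), gave the clearest increase. Its level was 22.6, 19.2 and 17.8 CPM with anti-Btla beads, 55.2, 50.6 and 48.8 CPM with control Ig beads, and 8.68, 7.35 and 8.07 CPM in unstimulated cells. The 3 groups did not overlap, with anti-Btla libraries between the other two. Egr2 was 2.46-fold higher than without stimulus (log2 1.30 ± 0.09 SE, adjusted p = 1.88e-08) and lower than with control Ig beads (log2 -1.38). Dusp4, a phosphatase of MAP kinases, had the same order, at 16.8, 14.2 and 13 CPM with anti-Btla beads, 26.1, 25.6 and 24.5 CPM with control Ig beads, and 8.61, 10.8 and 8.26 CPM without stimulus (log2 0.67 ± 0.11 against no stimulus, adjusted p = 0.000566). Nr4a2, an orphan nuclear receptor, was scarce and rose by 0.85 ± 0.19, a call lost without anti-Btla replicate 1 (0.72). Egr3 rose by 0.22 ± 0.05, against 1.12 with control Ig beads, and its call was lost without the block and without any 1 of 4 libraries (anti-Btla replicates 1 and 3 and unstimulated replicates 1 and 2, 0.20 to 0.22).

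Other early genes fell below the unstimulated level. Myc, the growth-promoting transcription factor, had 164, 141 and 138 CPM with anti-Btla beads, 311, 297 and 248 CPM with control Ig beads, and 181, 183 and 170 CPM in unstimulated cells. All anti-Btla libraries were thus below all unstimulated ones, by a narrow margin (log2 -0.27 ± 0.06, adjusted p = 0.01). That call was lost without the block (-0.27), without anti-Btla replicate 2 (-0.21) and without unstimulated replicate 3 (-0.22), so the direction rests on a small difference. Ier5, an immediate early gene, fell by 0.57 on the log2 scale and was at -0.48 with control Ig beads. Batf, an AP-1 family factor, fell by 0.48 with anti-Btla beads and was at 0.49 with control Ig beads. Dusp5, another MAP kinase phosphatase, fell by 0.72 and was at -0.88 with control Ig beads. Neither Ier5 nor Dusp5 was called between the bead kinds. The Batf call was lost without anti-Btla replicate 1 or 2 (-0.51 and -0.40) or unstimulated replicate 3 (-0.37), and the Dusp5 call without the block (-0.75), with lane as block (-0.42), and without anti-Btla replicate 1 (-0.55) or unstimulated replicates 2 and 3 (-0.55 and -0.74). For Egr1, Nr4a1 and Fos, the changes with anti-Btla beads were 0.26, -0.01 and -0.50, none past the threshold, against 1.46, 1.18 and 1.12 with control Ig beads.

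**Figure D1:**
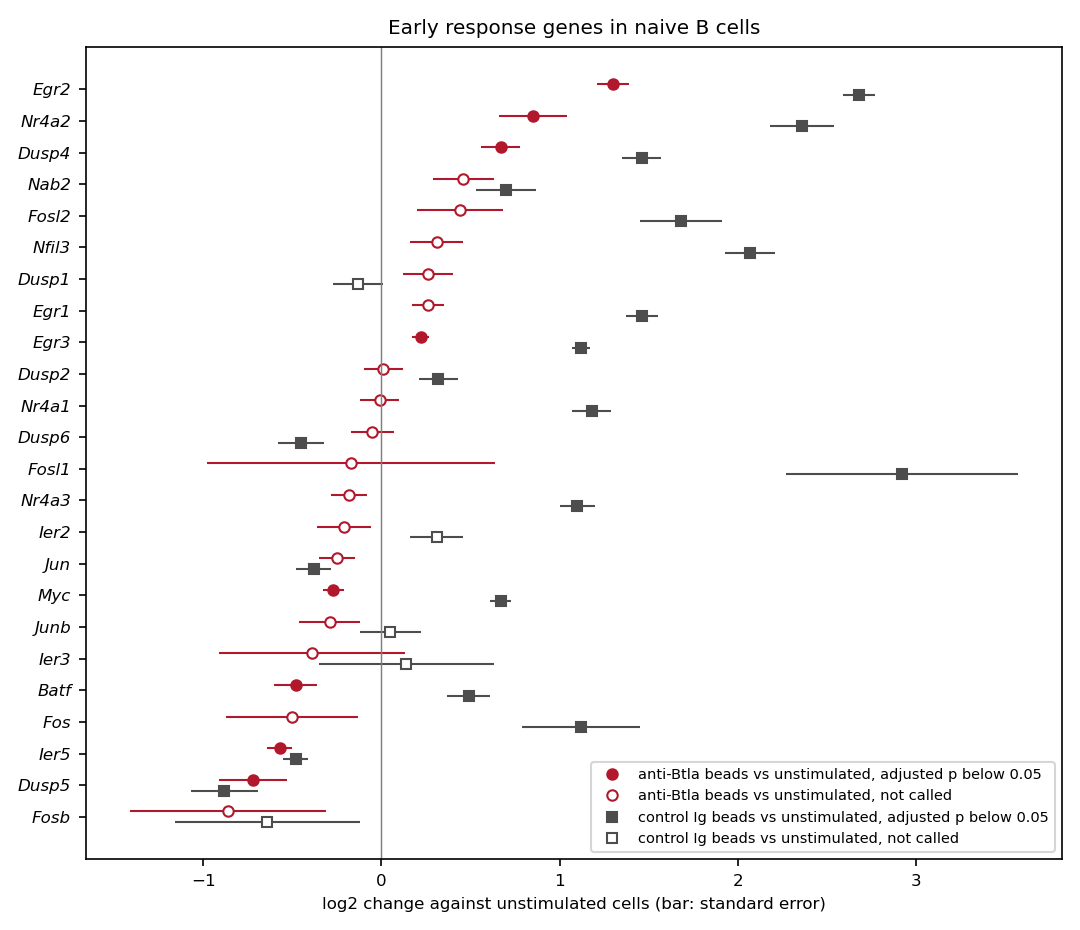
Log2 change (± SE) of 24 early response genes of the B cell receptor relative to unstimulated naive B cells, with anti-Btla beads and with control Ig beads, filled where the adjusted p was below 0.05. With anti-Btla beads 4 genes rose, led by Egr2 at 1.30, and 4 fell, while 15 rose with control Ig beads.

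Among the largest increases, several genes had levels with anti-Btla beads that overlapped those with control Ig beads. Vav3, a guanine nucleotide exchange factor that acts downstream of the B cell receptor (chr3:109340653-109685698), had 73, 79.9 and 82.7 CPM with anti-Btla beads, 87.8, 70.8 and 90 CPM with control Ig beads, and 34, 28.4 and 33.8 CPM without stimulus. Both bead groups lay above every unstimulated library and overlapped each other. The increase was 1.30 ± 0.08 (adjusted p = 5.7e-09), and the difference between the bead kinds was -0.07 with a 95% interval of -0.22 to 0.09. Ccr6, the receptor for the chemokine Ccl20 (chr17:8236043-8257141), showed the same pattern, with 165, 147 and 147 CPM in anti-Btla libraries, 153, 143 and 150 CPM in control Ig libraries and 82.2, 69.8 and 91 CPM in unstimulated ones (log2 0.92 ± 0.07, adjusted p = 1.2e-07, bead difference 0.04, -0.11 to 0.19). Lck, a Src family kinase best known in T cells, rose by 0.80 ± 0.11 with anti-Btla beads and by 0.91 with control Ig beads, beside the Cd28 value given above. Rnf150, a RING finger protein, gave the largest increase of the genes named, from a low level. It had 12.1, 8.29 and 10.3 CPM with anti-Btla beads, 11.7, 12.4 and 17.4 CPM with control Ig beads and 2.19, 0.814 and 1.66 CPM in unstimulated cells, a 6.65-fold increase (log2 2.73 ± 0.19, adjusted p = 6.8e-08). Its libraries overlapped between the bead kinds, although its fitted level was lower with anti-Btla beads by 0.44 on the log2 scale (95% interval -0.78 to -0.10). Adgre1, which encodes F4/80 and is on the list of myeloid markers, had 29.4, 23.8 and 23.3 CPM with anti-Btla beads against 15.4, 13.1 and 13.7 CPM without stimulus (0.85 ± 0.09). Of the other myeloid markers tested, only Lyz2 was called (0.92 ± 0.18, at 2.54 to 13.1 CPM against 1.61 to 5.83 CPM, overlapping), and Csf1r was at -0.01 and Itgam at -0.15, while the part of myeloid cells in the Adgre1 value was not tested.

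Other increases reached only part of the level seen with control Ig beads. Hivep3, a zinc finger protein of the Schnurri family, had 87.4, 62.7 and 70.1 CPM with anti-Btla beads, 130, 108 and 103 CPM with control Ig beads and 43, 30.3 and 30.5 CPM without stimulus. It rose by 1.09 ± 0.06 (adjusted p = 3.19e-09) and lay 0.64 below control Ig beads on the log2 scale (95% interval -0.76 to -0.51). Etv6, an ETS family repressor, rose by 0.74, Rgs2, a regulator of G protein signaling, by 0.81, Oxct1, an enzyme of ketone body use, by 0.77, and Asph, an aspartate hydroxylase, by 1.42. With control Ig beads the same genes rose by 1.33, 1.33, 1.14 and 2.46, and each differed between the bead kinds (adjusted p of 0.000231 or less).

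A further set was higher with anti-Btla beads than in both other groups. Tnfrsf26, a member of the TNF receptor family (chr7:143607659-143628722), had 102, 113 and 97.2 CPM with anti-Btla beads, 56.1, 48.6 and 46 CPM with control Ig beads and 54.1, 60.1 and 48.8 CPM without stimulus. The control Ig and unstimulated libraries overlapped and the anti-Btla libraries stood clear of both (0.94 ± 0.06 against no stimulus, adjusted p = 1.53e-08, and 1.05 against control Ig beads). Crisp3, a cysteine-rich secretory protein, had 26.1, 28.1 and 43.8 CPM, against 13.7, 10.2 and 20.9 CPM with control Ig beads and 10, 11.5 and 14.8 CPM without stimulus (1.41 ± 0.15, adjusted p = 3.35e-05, a call lost without the replicate block). Plac8 (0.94), the epoxide hydrolase Ephx1 (0.79), the IgM Fc receptor Fcmr (0.60) and the chromatin organizer Satb1 (0.50) rose against no stimulus and were also higher than with control Ig beads, by 0.72, 0.57, 0.52 and 0.63. Fcmr was abundant, at 1300, 1180 and 1190 CPM with anti-Btla beads, 928, 847 and 795 CPM with control Ig beads and 785, 845 and 786 CPM in unstimulated cells.

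**Figure D2:**
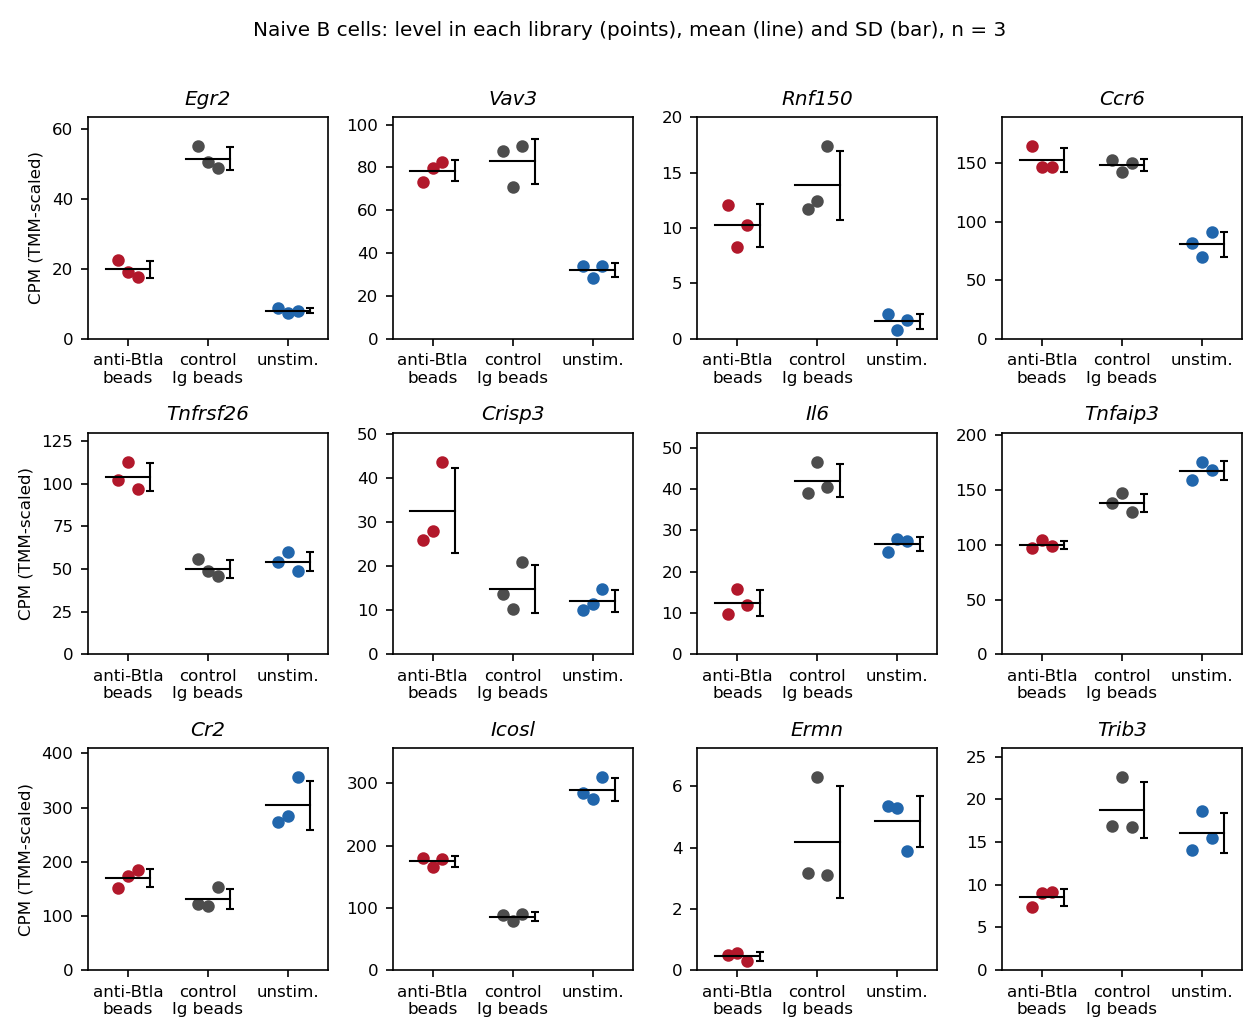
Level of 12 genes in each library (CPM, 1 panel a gene, axes from 0), with anti-Btla beads, control Ig beads and no stimulus from left to right. Points are libraries, the line is the mean and the bar is the SD (n = 3 each). Vav3 and Ccr6 are alike in both bead groups, Tnfrsf26 and Crisp3 are highest with anti-Btla beads, and Il6, Tnfaip3, Ermn and Trib3 are lowest there.

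Il6 had the largest decrease on the log2 scale of the genes taken at a mean of 10 CPM or more. This cytokine of B cell expansion and differentiation (chr5:30013114-30019981) had 9.64, 15.7 and 11.9 CPM with anti-Btla beads, 39, 46.6 and 40.5 CPM with control Ig beads and 24.8, 28 and 27.3 CPM without stimulus. The anti-Btla libraries were the lowest of the 3 groups, 2.19-fold below unstimulated cells (log2 -1.13 ± 0.11, adjusted p = 2.86e-06), whereas control Ig beads raised Il6 by 0.65. Ermn, which encodes the cytoskeletal protein ermin of oligodendrocytes (chr2:58045113-58052864), fell most on the fold scale but was scarce throughout. It had 0.491, 0.566 and 0.295 CPM with anti-Btla beads, 3.16, 6.3 and 3.11 CPM with control Ig beads and 5.37, 5.3 and 3.9 CPM without stimulus, an 11-fold decrease (log2 -3.45 ± 0.24, adjusted p = 1.91e-08). Vegfa, the vascular growth factor, and Nfe2l1, a factor of proteasome genes, also fell below both other groups, by 0.86 and 0.53 against no stimulus, and by 0.72 and 0.55 against control Ig beads.

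Several regulators of NF-kB fell as well. Of 16 subunits and inhibitors, 5 fell and 0 rose (median -0.20), against 5 higher and 5 lower with control Ig beads (median -0.13). Tnfaip3, the deubiquitinase A20 that limits NF-kB signaling (chr10:19000910-19015657), had 97.3, 104 and 99 CPM with anti-Btla beads, 138, 147 and 130 CPM with control Ig beads and 159, 176 and 168 CPM without stimulus. No library of the 3 groups overlapped another group, and the decrease against no stimulus was -0.74 ± 0.05 (adjusted p = 1.91e-08). Nfkbid and Nfkbiz, atypical IkB proteins, fell by 0.97 and 0.59, against decreases of 0.62 and 0.46 with control Ig beads. Traf1, an adaptor of TNF receptors, fell by 0.31 and rose by 0.30 with control Ig beads. Nfkb2 was the fifth (-0.35), and its call was lost without the block and without any 1 of 3 libraries (anti-Btla replicate 2, -0.25, and unstimulated replicates 2 and 3, -0.29 and -0.33).

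Cytokine and surface genes of activation were mostly flat or lower. Of 17 cytokines and chemokines, 2 rose and 4 fell (median -0.32), against 6 higher and 5 lower with control Ig beads. Besides Il6, Ltb (lymphotoxin beta) had 17.6, 14.4 and 15.2 CPM with anti-Btla beads, 8.61, 8.88 and 5.12 CPM with control Ig beads and 26.7, 35.8 and 26.9 CPM without stimulus, so that anti-Btla libraries lay between the others (-0.91 ± 0.14, adjusted p = 0.00029). Lta fell by 1.42, and Cxcl10, below 1 CPM with anti-Btla beads, fell by 1.37, a call lost in 9 of the alternatives, among them leaving out any 1 library but unstimulated replicate 2 (-1.27 to -1.49). The chemokine Ccl22 (0.40) and the growth factor Csf1 (0.51) rose, against 1.27 and 1.46 with control Ig beads, and both calls were lost without the block and in 5 of the 6 fits that left out a library (0.33 to 0.44 for Ccl22 and 0.39 to 0.58 for Csf1). Of 20 surface proteins of activated B cells, only Ccr6 rose and 7 fell (median -0.19), against 9 higher and 5 lower with control Ig beads. Cd40, the receptor for T cell help, had 51.6, 48.5 and 52.7 CPM with anti-Btla beads and 54.9, 54.1 and 53 CPM with control Ig beads, both below the 80.1, 72.1 and 81.1 CPM of unstimulated cells (-0.61 ± 0.06, adjusted p = 2.95e-06). Cd83, a surface protein of activated B cells, fell by 0.38 and was at 0.02 with control Ig beads. The BAFF receptor Tnfrsf13c fell by 0.46 and the SLAM receptor Slamf1 by 0.59, and they were at -0.26 and -0.75 with control Ig beads. Cd86, a ligand of Cd28, was at 0.13 and not called, against 0.71 with control Ig beads.

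Growth programs separated into those shifted above the unstimulated level and those near it. Cytosolic ribosomal protein genes moved furthest, 12 of 34 higher and 0 lower (median 0.27), against 34 higher with control Ig beads (median 0.77). Rps25 had 948, 944 and 997 CPM with anti-Btla beads, 1300, 1320 and 1250 CPM with control Ig beads and 589, 744 and 682 CPM without stimulus, with no overlap (0.53 ± 0.06, adjusted p = 5.25e-06). Ribosomal protein genes have many processed pseudogenes, so their estimated counts are uncertain. By contrast, of 42 genes of ribosome biogenesis, which include many Myc targets, only Npm1 (0.36 ± 0.06) and Nop10 (0.29 ± 0.07) rose and 0 fell (median -0.03), against 41 higher with control Ig beads (median 0.62). Npm1, which encodes the nucleolar protein nucleophosmin, had 1800, 1910 and 1840 CPM with anti-Btla beads, 3430, 2970 and 3180 CPM with control Ig beads and 1430, 1450 and 1430 CPM without stimulus. The call of Nop10 was lost without the block and in 4 of the 6 fits that left out a library (0.24 to 0.28).

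Glycolysis and respiration lay between these. Of 21 glycolytic genes, 7 rose and 1 fell (median 0.18), against 13 higher and 2 lower with control Ig beads (median 0.72). Gapdh had 329, 268 and 297 CPM with anti-Btla beads, 615, 545 and 471 CPM with control Ig beads and 201, 223 and 179 CPM without stimulus (0.57 ± 0.11, adjusted p = 0.00582). Ldha, lactate dehydrogenase A, had 181, 159 and 168 CPM, against 367, 338 and 321 CPM with control Ig beads and 135, 141 and 128 CPM without stimulus (0.33 ± 0.05, adjusted p = 0.000312). Neither gene overlapped between any 2 groups. Pgk1, phosphoglycerate kinase, rose by 0.47 and Tpi1, triosephosphate isomerase, by 0.43, against 1.38 and 0.97 with control Ig beads. Of 40 subunits of oxidative phosphorylation, 7 rose and 0 fell (median 0.18), against all 40 higher with control Ig beads (median 0.82), and the examples Cox7b and Sdhc rose by 0.42 and 0.41. Sterol synthesis showed 0 called genes among 23 with edgeR or DESeq2 (median 0.06), against 18 higher with control Ig beads (median 0.49). With anti-Btla beads, 6 of the 23 had an unadjusted edgeR p below 0.05, as did 3230 of all 16635 genes tested. Genes of the unfolded protein response gave 0 higher and 2 lower of 20 (Dnajb9, -0.40, and Herpud1, -0.35), against 16 higher and 2 lower with control Ig beads.

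**Figure D3:**
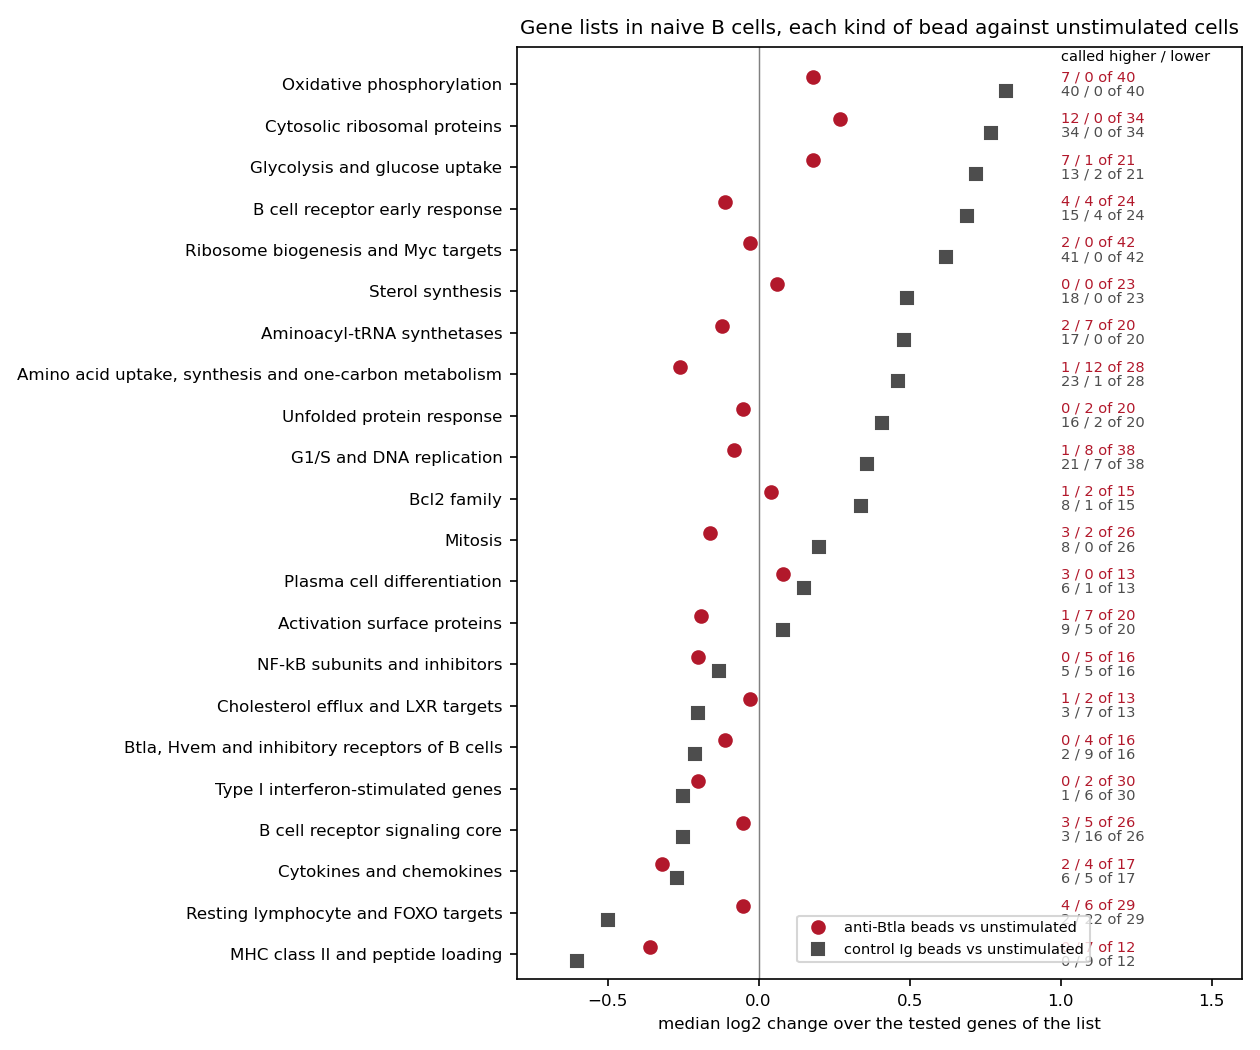
Median log2 change against unstimulated naive B cells of 22 gene lists, with anti-Btla beads (circles) and control Ig beads (squares), and beside each list the number of genes called higher and lower. Ribosomal proteins have the largest positive median with anti-Btla beads (0.27), and ribosome biogenesis is at -0.03 with anti-Btla beads and 0.62 with control Ig beads.

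Many amino acid genes fell below the unstimulated level. Of 28 genes of amino acid uptake, synthesis and one-carbon metabolism, 12 fell and 1 rose (median -0.26), against 23 higher and 1 lower with control Ig beads (median 0.46). Trib3, a pseudokinase induced by the transcription factor Atf4 when amino acids are short, had 7.37, 9.02 and 9.13 CPM with anti-Btla beads, 16.9, 22.6 and 16.8 CPM with control Ig beads and 14.1, 18.7 and 15.5 CPM without stimulus. Its anti-Btla libraries stood clear below both other groups (-0.91 ± 0.11, adjusted p = 1.17e-05). Chac1, an enzyme that degrades glutathione and another Atf4 target, had 6.6, 7.4 and 7.8 CPM, against 18.9, 19.3 and 14.1 CPM with control Ig beads and 12.4, 14.1 and 11.6 CPM without stimulus (-0.80 ± 0.11, adjusted p = 0.000114). Asns, asparagine synthetase, had 13, 12.1 and 12.9 CPM, against 32.8, 34.8 and 27.1 CPM with control Ig beads and 20.5, 16.4 and 18.5 CPM without stimulus (-0.54 ± 0.11, adjusted p = 0.00436). The large neutral amino acid transporter Slc7a5 (-0.39 ± 0.06), the cationic amino acid transporter Slc7a1 (-0.37 ± 0.06) and Atf4 itself (-0.32 ± 0.07) fell as well. Against these, Mthfd1 of one-carbon metabolism rose by 0.26, a call lost without the block (0.26), with only the 6 libraries (0.26), and without anti-Btla replicate 3 (0.22) or unstimulated replicates 1 and 3 (0.25 and 0.26). The Asns call was lost without unstimulated replicate 3 (-0.47). Of 20 aminoacyl-tRNA synthetases, 7 fell, such as Aars (-0.26) and Tars (-0.22), and 2 rose, Kars (0.22) and Qars (0.24), while control Ig beads raised 17. Without anti-Btla replicate 3 or unstimulated replicate 3 neither increase was called (0.20 and 0.22 for Kars, 0.24 and 0.24 for Qars), nor was Kars without unstimulated replicate 2 (0.20), Qars without unstimulated replicate 1 (0.22), or Tars without anti-Btla replicate 1 (-0.20) or unstimulated replicate 3 (-0.21).

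The promoters of Trib3, Chac1 and Asns are shown because these were the genes called lower that held the core of the amino acid response element bound by Atf4, searched as TGATGNAA on both strands. Each runs from 250 bases before to 50 bases after the RefSeq start of transcription, on GRCm38.p6, 5′ to 3′ on the strand of the gene, with the match in capitals. The windows are chr2:152344011-152344310 on the minus strand for Trib3, chr2:119350992-119351291 on the plus strand for Chac1 and chr6:7693160-7693459 on the minus strand for Asns.
Trib3: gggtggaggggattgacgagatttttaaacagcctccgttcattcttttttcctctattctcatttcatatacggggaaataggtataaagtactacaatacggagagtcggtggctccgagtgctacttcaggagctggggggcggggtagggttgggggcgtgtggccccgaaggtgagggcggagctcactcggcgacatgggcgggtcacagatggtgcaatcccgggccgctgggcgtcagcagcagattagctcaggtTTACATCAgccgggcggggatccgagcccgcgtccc
Chac1: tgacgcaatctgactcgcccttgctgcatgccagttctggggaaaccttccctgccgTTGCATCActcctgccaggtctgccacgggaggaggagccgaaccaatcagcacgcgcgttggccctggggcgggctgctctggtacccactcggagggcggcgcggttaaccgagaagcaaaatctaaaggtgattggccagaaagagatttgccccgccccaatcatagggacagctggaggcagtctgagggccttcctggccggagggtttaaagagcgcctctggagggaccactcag
Asns: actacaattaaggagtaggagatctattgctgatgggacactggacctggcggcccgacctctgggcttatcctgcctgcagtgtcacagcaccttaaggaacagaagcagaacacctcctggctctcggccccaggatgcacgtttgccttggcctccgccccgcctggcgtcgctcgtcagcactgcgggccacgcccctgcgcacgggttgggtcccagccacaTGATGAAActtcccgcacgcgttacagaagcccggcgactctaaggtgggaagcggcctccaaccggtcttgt
The match began 14 bases after the start in Trib3, 193 bases before it in Chac1 and 23 bases before it in Asns. Of the 28 genes of the amino acid list, 23 had a promoter in the RefSeq table and 6 of these held a match (26.1%), against 374 of 11144 tested genes with a promoter (3.36%) and 3.97% of all 32851 windows. The other 3 were Pycr1 (0.02), Got1 (0.04) and Slc7a11 (-0.05), none called. Of the 12 genes of the list called lower, only Trib3, Chac1 and Asns held a match. The rest held none, such as Slc7a1 and Atf4, or had no promoter in the RefSeq table, such as Slc7a5. The list was made with known Atf4 targets in it, such as Trib3 and Chac1, so its higher share is not an independent result. The motif was searched after the values were seen, and a match is a description of the sequence, not evidence of binding.

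Cell cycle genes changed in both directions. Of 38 genes of G1/S and DNA replication, 1 rose and 8 fell (median -0.08), against 21 higher and 7 lower with control Ig beads (median 0.36). Ccnd2, a D-type cyclin, had 218, 209 and 220 CPM with anti-Btla beads, 533, 472 and 492 CPM with control Ig beads and 297, 244 and 254 CPM without stimulus, so the lowest libraries were those with anti-Btla (-0.30 ± 0.06, adjusted p = 0.00287). E2f2, an E2F transcription factor, fell by 0.80, while Mcm6, a subunit of the replicative helicase, rose by 0.21. With control Ig beads E2f2 was at -0.61 and Mcm6 at 0.79. The Mcm6 call was lost without the block and in 4 of the 6 fits that left out a library (anti-Btla replicates 2 and 3 and unstimulated replicates 1 and 3, 0.17 to 0.21). Of 26 mitotic genes, 3 rose (Aurkb, 0.54, Cenpa, 0.55, and Cenpe, 0.39) and 2 fell (Mki67, -0.39, and Tpx2, -0.55). Control Ig beads raised 8 of the 26 and lowered 0, with these genes at 0.47, 0.16, 0.48, -0.09 and 0.21. With anti-Btla beads, Aurkb was not called without unstimulated replicate 3 (0.42), and Cenpe without that library (0.37) or anti-Btla replicate 3 (0.33). Tpx2 was not called without any 1 library but unstimulated replicate 3 (-0.35 to -0.62). Mki67, Cenpe and Tpx2 were not called without the block. Ezh2, the methyltransferase of histone H3 lysine 27 that proliferating B cells express, had 111, 117 and 115 CPM with anti-Btla beads, 221, 207 and 222 CPM with control Ig beads and 96.7, 76.5 and 83.3 CPM without stimulus (0.42 ± 0.07, adjusted p = 0.000572). Ezh2, Ldha, Il6 and Myc are named for B cells by the study, on libraries of this series, as reduced by anti-Btla relative to control. Set against control Ig beads, all 4 were called lower here too. Against no stimulus, a different comparison, 2 were higher and 2 lower. Neither count is independent evidence of a direction, since the genes were named on these libraries. Hif1a, a regulator of glycolysis, was at -0.16 and not called. Of 15 members of the Bcl2 family, the pro-apoptotic Pmaip1 rose (0.58 ± 0.09) and the survival genes Mcl1 (-0.27 ± 0.05) and Bcl2l1 (-0.38 ± 0.10) fell. Control Ig beads raised 8 of the 15 and lowered 1, with Pmaip1 at 0.66 and Mcl1 at -0.27, and neither gene was called between the bead kinds. Bcl2l1 stood at 0.49 with control Ig beads, and its call with anti-Btla beads was lost without anti-Btla replicate 1 (-0.34) and without unstimulated replicates 1 and 3 (-0.35 and -0.40).

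Genes of resting B cells were called in both directions. Of 29 genes of quiescent lymphocytes and FOXO targets, 4 rose and 6 fell (median -0.05), against 2 higher and 22 lower with control Ig beads (median -0.50). Over all genes tested, 3.8% rose and 4.29% fell with anti-Btla beads. Pik3ip1, an inhibitor of PI3 kinase, had 82.6, 85.8 and 78.7 CPM with anti-Btla beads, 42, 36.7 and 40.8 CPM with control Ig beads and 53.9, 67.5 and 57.6 CPM without stimulus. It was thus above both other groups (0.47 ± 0.08, adjusted p = 0.000432) and 1.05 higher than with control Ig beads. Bach2, the repressor that holds back plasma cell differentiation, rose by 0.35 ± 0.05 and Il7r, the interleukin 7 receptor, by 0.42 ± 0.08. Txnip, a glucose-sensitive regulator of glucose uptake, had 155, 148 and 154 CPM with anti-Btla beads, 105, 109 and 98.6 CPM with control Ig beads and 198, 257 and 243 CPM without stimulus, an intermediate level (-0.61 ± 0.07, adjusted p = 1.56e-05). The follicular homing receptor Cxcr5 fell by 0.51 and the transcription factor Klf3 by 0.35.

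Several surface proteins of mature B cells fell. Of 15 B cell markers, 7 fell and 1 rose (median -0.16), against 13 lower with control Ig beads (median -0.38). Cr2, the complement receptor CD21 (chr1:195136811-195176716), had 152, 173 and 184 CPM with anti-Btla beads, 122, 118 and 153 CPM with control Ig beads and 273, 284 and 356 CPM without stimulus. The anti-Btla libraries lay below every unstimulated one and overlapped the control Ig libraries by 1 library (-0.84 ± 0.06, adjusted p = 1.53e-08). Icosl, the ligand of the T cell receptor ICOS (chr10:78069302-78083913), had 180, 165 and 179 CPM, against 88.8, 78.1 and 90.6 CPM with control Ig beads and 285, 275 and 310 CPM without stimulus (-0.73 ± 0.05, adjusted p = 1.91e-08), with the 3 groups apart. The low-affinity IgE receptor Fcer2a (CD23) fell by 0.52 against 1.38 with control Ig beads, and Ms4a1 (CD20) by 0.52 against 0.64. Of 12 genes of MHC class II presentation, 7 fell and 0 rose (median -0.36), against 9 lower with control Ig beads (median -0.60). H2-Aa had 506, 443 and 552 CPM with anti-Btla beads, 467, 410 and 467 CPM with control Ig beads and 562, 626 and 730 CPM without stimulus (-0.35 ± 0.08, adjusted p = 0.00804), a call lost without the block and without unstimulated replicate 3 (-0.31). Ciita, the transactivator of MHC class II, fell by 0.35. Of 26 genes of the receptor's signaling core, 3 rose (the kinases Fyn, 0.32, Blk, 0.24, and Pik3cd, 0.37) and 5 fell, against 3 higher and 16 lower with control Ig beads. The call of Blk was lost without the block and without any 1 of 4 libraries (anti-Btla replicates 1 and 3 and unstimulated replicates 1 and 3, 0.17 to 0.26).

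The remaining large decreases fell into the same patterns. Cacna1i, a T-type calcium channel, had 40.6, 29.4 and 30.5 CPM with anti-Btla beads, 15.2, 12.2 and 12.7 CPM with control Ig beads and 66.5, 70.9 and 70.7 CPM without stimulus (-1.06 ± 0.09, adjusted p = 2.43e-07), again an intermediate level. Fry, Kbtbd11, Lyst, Stac2 and the sphingosine 1-phosphate exporter Spns2 were intermediate too, with decreases of 0.79, 0.95, 0.61, 1.11 and 0.98 against 1.56, 1.69, 1.00, 1.92 and 1.70 with control Ig beads. Fgd2, an exchange factor for Cdc42, had 34.6, 25.9 and 30.3 CPM with anti-Btla beads, 30.1, 29.5 and 29.2 CPM with control Ig beads and 61.6, 61.7 and 59.7 CPM without stimulus. The bead kinds overlapped, and their difference was 0.03 with an interval of -0.16 to 0.22, whereas the decrease against no stimulus was -1.01 ± 0.09 (adjusted p = 4.78e-07). Vpreb3, Ceacam1, an inhibitory adhesion receptor, and the ubiquitin ligase Nedd4 fell by 1.10, 0.63 and 1.07 with anti-Btla beads and by 1.31, 0.75 and 1.10 with control Ig beads. The Nedd4 call was lost without the replicate block.

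Btla itself was not called with anti-Btla beads. It had 588, 577 and 563 CPM with anti-Btla beads, 375, 377 and 410 CPM with control Ig beads and 627, 645 and 618 CPM in unstimulated cells (-0.13 ± 0.05, adjusted p = 0.119, against -0.70 with control Ig beads). Its ligand gene Tnfrsf14 had 9.46, 6.07 and 9.43 CPM, against 8.83, 6.81 and 6.5 CPM with control Ig beads and 8.68, 6.35 and 7.24 CPM without stimulus, with overlap throughout (0.17 ± 0.15, adjusted p = 0.629). Of 16 genes of Btla, its partners and other inhibitory receptors, 4 fell and 0 rose (median -0.11), against 2 higher and 9 lower with control Ig beads. Those that fell were the phosphatase gene Ptpn6 (-0.24), the sialic acid-binding receptors Cd22 (-0.28) and Siglecg (-0.23), and Pirb (-0.33). Without the block Ptpn6, Siglecg and Pirb were not called, and Siglecg was not called without any 1 of 4 libraries (replicates 2 and 3 of both groups, -0.17 to -0.24). Ptpn11, which encodes Shp-2, was at 0.02 and not called.

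Plasma cell genes had calls in 1 direction, and interferon-stimulated genes had few calls. Of 13 plasma cell genes, 3 rose and 0 fell (median 0.08), against 6 higher and 1 lower with control Ig beads. Slamf7 had 362, 357 and 308 CPM with anti-Btla beads, 359, 308 and 305 CPM with control Ig beads and 272, 263 and 227 CPM without stimulus (0.43 ± 0.06). Prdm1 (0.32 ± 0.08), the master regulator of plasma cells, and Sdc1 (0.89 ± 0.24), the plasma cell marker CD138, also rose. Prdm1 lost its call without any 1 of 4 libraries (anti-Btla replicates 1 and 2 and unstimulated replicates 1 and 2, 0.27 to 0.31), and Sdc1 without any 1 of 3 (anti-Btla replicate 1 and unstimulated replicates 1 and 2, 0.59 to 0.92). Of 30 interferon-stimulated genes, only Irf7 (-0.66) and Cmpk2 (-0.64) fell and 0 rose (median -0.20), against 1 higher and 6 lower with control Ig beads. Over all genes tested, 3.8% rose and 4.29% fell with anti-Btla beads. Both Irf7 and Cmpk2 were lost without the block. Irf7 was also lost without any 1 of 4 libraries (anti-Btla replicates 1 and 2 and unstimulated replicates 2 and 3, -0.55 to -0.63). Of 13 targets of the sterol sensor LXR and genes of cholesterol efflux, Abcg1 rose (0.31) and Abca1 and Scd1 fell (-0.37 and -0.19). Control Ig beads raised 3 of this list and lowered 7. Abcg1 lost its call in 5 of the 6 fits that left out a library (all but unstimulated replicate 1, 0.27 to 0.36), and Scd1 in 4 (anti-Btla replicates 1 and 3 and unstimulated replicates 2 and 3, -0.15 to -0.19). Abca1, the cholesterol exporter, had 124, 129 and 115 CPM with anti-Btla beads, 50.2, 44.8 and 52.7 CPM with control Ig beads and 162, 162 and 149 CPM without stimulus, so that the 3 groups did not overlap.

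The bead kinds differed little for some of the genes called against no stimulus, but not more often than elsewhere. Among genes averaging 10 CPM or more, the whole 95% interval of anti-Btla against control Ig beads lay within 0.32 of 0 on the log2 scale for 140 of 534 genes that rose (26.2%) and 247 of 603 that fell (41.0%), against 3359 of all 8566 such genes (39.2%). The bound is about as large as the median called change, so these counts do not show that the bead kinds act alike. Rb1, the retinoblastoma protein, had 471, 475 and 471 CPM with anti-Btla beads, 491, 477 and 519 CPM with control Ig beads and 383, 370 and 377 CPM without stimulus (0.33 ± 0.05 against no stimulus, bead difference -0.07, -0.16 to 0.03), with both bead groups above every unstimulated library.

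Some of the calls above did not hold in every fit. With only the 6 libraries compared, Nr4a2, Nfkb2, Ccl22, Csf1, Cxcl10, Nop10, Tpi1, Atf4, Kars, Qars, Mcm6, Aurkb, Cenpe, Tpx2, Bcl2l1, Blk, Siglecg, Prdm1, Sdc1 and Abcg1 were not called. With sequencing lane in place of replicate as the block, Egr3, Myc, Cxcl10, Aars, Tars, Mcm6, Mki67, Ciita, Blk, Irf7, Cmpk2 and Abcg1 were not called, and without a block Aars, Tars, Atf4, Kars, Ciita, Il7r, Lyz2, Cxcl10 and Abcg1 were lost besides those already named as such. None of these genes changed sign in those fits.

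Exons of some of these genes share sequence positions with another annotated gene, and whether counting used strand is not given in the sources used here, so reads could be assigned to either. On the same strand these were Hivep3, Lck, Ephx1, Satb1, Aars, Hif1a, Itgam and Lat. On the opposite strand they were Rnf150, Etv6, Oxct1, Asph, Tnfrsf26, Satb1, Ermn, Nfkb2, Cxcl10, Rps25, Gapdh, Tpi1, Dnajb9, Aars, Ccnd2, Ezh2, Hif1a, Pik3ip1, Bach2, Txnip, Cxcr5, Klf3, Ciita, Kbtbd11, Spns2, Cd22, Ptpn6, Slamf7, Irf7 and Rb1.

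The same arms in B cells from EAE animals share no library with those above. There, anti-Btla beads raised 681 (3.93%) and lowered 716 (4.13%) of 17341 genes tested relative to unstimulated EAE cells. Replicates 1, 2 and 3 held 29.5, 6.7 and 13.8 M counts with anti-Btla beads, against 40.1, 40.6 and 51.0 M without stimulus. What this difference in depth did to the EAE calls was not tested. Of the 632 genes that rose in naive cells, 630 had the same sign in EAE cells and 414 were called higher, which is 65.5% of the naive list and 60.8% of the EAE calls. Of the 713 that fell, 699 had the same sign and 438 were called lower (61.4% of the naive list and 61.2% of the EAE calls), and 0 genes were called in opposite directions. The 12 largest increases and the 12 largest decreases of naive cells were all called in the same direction in EAE cells, with medians of 1.09 and -1.04. Rnf150 had 7.69, 12.0 and 11.7 CPM in EAE cells with anti-Btla beads against 0.649, 1.39 and 1.31 CPM in unstimulated EAE cells (3.21 ± 0.19, adjusted p = 1.94e-11). Il6 had 15.7, 12.4 and 12.0 CPM with anti-Btla beads against 40.8, 28.3 and 35.4 CPM without stimulus (-1.38 ± 0.12, adjusted p = 1.43e-08), and Ermn 1.83, 0.438 and 0.854 CPM against 11, 5.44 and 9.57 CPM (-3.02 ± 0.25, adjusted p = 5.76e-09). In none of these did the EAE groups overlap. Tested as a difference, the effect of anti-Btla beads in EAE minus that in naive cells was called for 1 of 17341 genes (0.00577%), Kntc1, by edgeR, with 529 at an unadjusted p below 0.05 and 7 called by DESeq2.

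**Figure D4:**
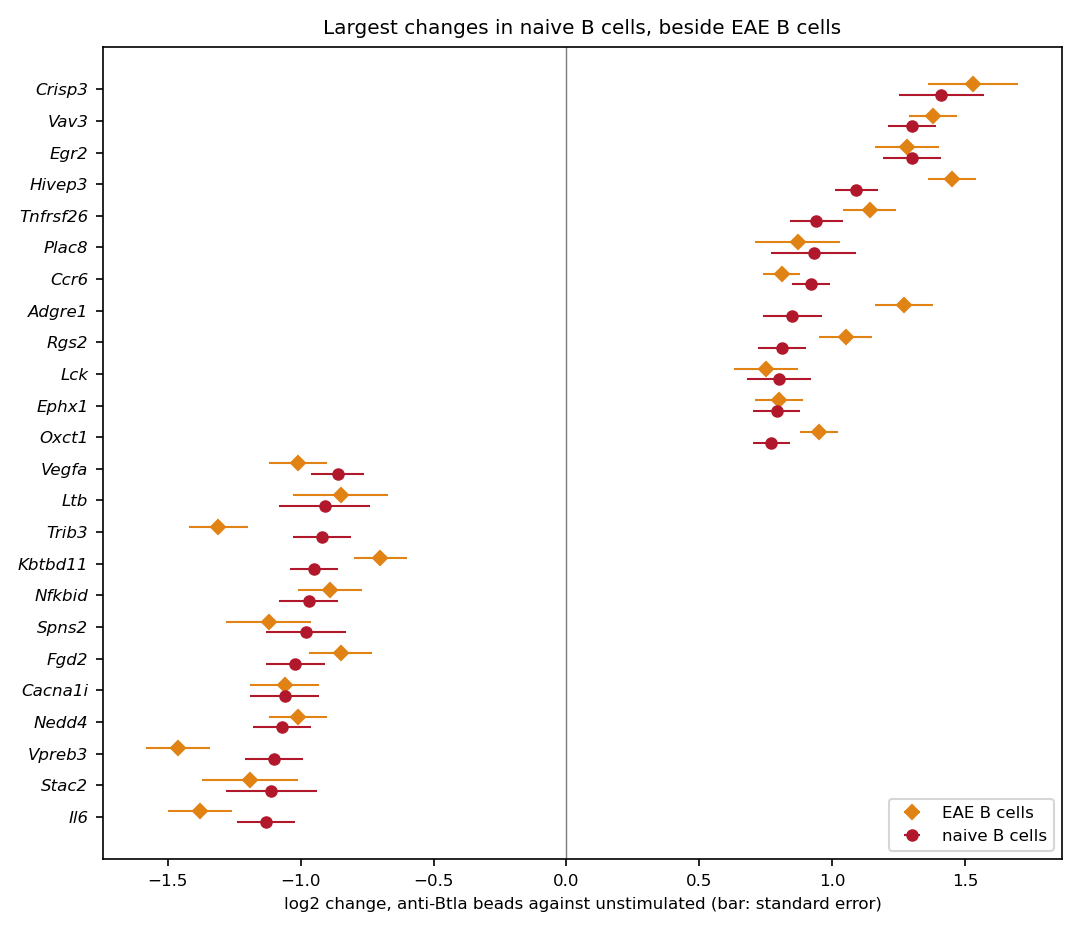
Log2 change (± SE) with anti-Btla beads against unstimulated cells for the 12 largest increases and 12 largest decreases of naive B cells, in EAE cells (diamonds) and naive cells (circles), from 1 fit of 30 B cell libraries. Every gene shown changed in the same direction in both, and the genes were chosen on the naive values.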

How the data were processed

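Antibody-coated beads were applied to purified B cells for 18 h, and total RNA was sequenced on an Illumina HiSeq by the study. The authors deposited, for each of 67 sequencing runs, estimated counts and TPM per transcript from Salmon on GRCm38, with no version given in the sources used here. The deposited TPM values were not used, and neither were the T cell files. Estimated counts were summed per gene with the GENCODE M21 annotation of that build (35498 genes), and the sums were rounded to whole numbers. Each B cell library had 1 run, so no runs were added. Between 0.158 and 0.21% of counts lay on the 569 of 116546 transcripts with no gene match, and these were left out.

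Genes were filtered with filterByExpr at a minimum count of 10, scaled with TMM and tested with the edgeR quasi-likelihood F-test (edgeR 4.0.16, limma 3.58.1, R 4.3.3), with group and replicate number as terms over the 15 naive B cell libraries (5 groups of 3), since the study's methods give replicate as a term of its linear models unless otherwise indicated. No formula is stated there for the RNA-seq analysis. P-values were Benjamini-Hochberg adjusted over all genes tested and a gene was called below 0.05. Changes are log2 fold changes, each with an SE equal to its size divided by the square root of F, and intervals are at 95%. CPM use TMM library sizes. The EAE contrasts used 1 fit of all 30 B cell libraries, with its own filter. The script was tested on simulated data. Replicates of a group differed by more than sampling noise (chi-square per degree of freedom 7.565 to 20.87), so no library was counted as a repeat of another.

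Genes named are the 12 largest changes in each direction among called protein-coding genes averaging 10 CPM or more over the 6 libraries that moved alike in 3 of 3 same-numbered pairs, the 12 with the smallest p in each direction, the 6 smallest p within each list, Btla, Tnfrsf14, the study's own genes, and the 6 narrowest bead differences in each direction (of which Rb1 and Bach2 are described). Members, lists and rules were chosen with earlier results of these data known. Egr1, Nr4a1, Fos, Dusp5, Batf, Cd86, Csf1r, Mthfd1, Asns, Pycr1, Got1, Slc7a11, Ptpn11 and Kntc1 fall outside that rule and were chosen after their values were seen. Promoters came from a RefSeq table on GRCm38.p6. Alternatives were DESeq2 1.42.0, its size factors in edgeR, upper quartile scaling, no filter and a minimum count of 50, no block, lane as block, only the 6 libraries compared, leaving out ribosomal, mitochondrial and immunoglobulin genes, and leaving out each library.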

Additional observations from a re-analysis of the deposited data

Results flagged for a closer look

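Kntc1, a component of the kinetochore complex that recruits checkpoint proteins (chr5:123749716-123821593, GRCm38), was the only gene whose change with anti-Btla beads differed between EAE and naive B cells in the test of that difference. In EAE cells it had 9.84, 4.82 and 7.69 CPM with anti-Btla beads against 5.49, 2.8 and 4.72 CPM without stimulus (log2 0.77 ± 0.12 SE, adjusted p = 7.52e-05). In naive cells it had 7.18, 5.27 and 6.2 CPM with anti-Btla beads against 8.84, 6.15 and 6.85 CPM without stimulus (-0.22, not called). Within each state the 2 groups overlapped, and same-numbered libraries moved up in 3 of 3 EAE pairs and down in 3 of 3 naive pairs. The numbers were not shown to pair the naive libraries, and the pairing of EAE libraries was not checked. The EAE libraries with anti-Btla beads held 29.5, 6.7 and 13.8 M counts. The difference was 0.99 ± 0.16 (95% interval 0.66 to 1.32, edgeR adjusted p = 0.0287), and 11 of 14 alternatives no longer called it, with DESeq2 among those that did (1.00). The gene lies below the 10 CPM used for naming genes and was chosen after its value was seen.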

How the results depend on the processing

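With 3 libraries a group, the counts of called genes depended on the fit more than the directions did. For anti-Btla beads against no stimulus, leaving the replicate block out gave 376 higher and 416 lower genes, and fitting only the 6 libraries with the block gave 299 and 392. Leaving out 1 library gave 323 to 656 higher and 399 to 591 lower genes, with the fewest calls without anti-Btla replicate 3 (726) and without unstimulated replicate 3 (744). DESeq2 called 1503, its size factors in edgeR 1290, upper quartile scaling 1371, no filter 1248, a minimum count of 50 1431, lane as block 1376, and the set without ribosomal, mitochondrial and immunoglobulin genes 1259. For the EAE minus naive difference DESeq2 called 6 higher and 1 lower genes, the fit with no replicate block called 0, and leaving out 1 library called 0 to 1 higher. Counts for control Ig beads and between the bead kinds stayed within 1.5 times of the main value under the alternatives run. Of the values of 149 genes named for anti-Btla beads against no stimulus, 1953 kept their call and 275 lost it across the alternatives, and 0 changed sign. In the check of the pairing, same-numbered libraries of the 15 had a median correlation of 0.118 in their deviations from group means (19 of 30 pairs above 0.1) and the other pairs -0.0582, but only 1 of the 3 pairs of anti-Btla and unstimulated libraries exceeded 0.1, so the numbers are not shown to pair these libraries. The median of the early response list changed sign to 0.06 without anti-Btla replicate 2, and the small medians of the Bcl2 family, resting and ribosome biogenesis lists also crossed 0 in 1 alternative or more. Genes below a few CPM, such as Ermn, Nr4a2 and Cxcl10, rest on few counts per library.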
